A study of Homo sapiens with 4 samples.

Results

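The desmosome components described here are 10 genes, DSP, DSG2, DSG3, DSC2, DSC3, PKP1, PKP2, PKP3, JUP and PERP, of 29437 genes listed in the deposited tables. They were taken by gene name, and all 10 were listed. Polyadenylated RNA was sequenced from CAL27, a long-established line from a human squamous cell carcinoma of the tongue. The 2 libraries labelled CCL20-overexpression came from cells that, per the labels, were given a lentivirus to raise CCL20, a secreted chemokine that attracts cells carrying the receptor CCR6. The 2 libraries labelled negative control came from the same line, and the labels do not say what these cells received. RNA of all 4 libraries was harvested after 48 hours. The comparison asks which genes differ when CCL20 is overexpressed. Nothing in the labels says that replicates came from separate cultures or that the overexpression line was a single clone, so p-values measure the spread between these libraries, which may be technical.

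Desmosomes are junctions that rivet neighbouring epithelial cells together and tie their keratin filaments into a tissue-wide network. Desmogleins and desmocollins are cadherins that bind across the gap between cells. Inside the cell, plakoglobin (JUP) and the plakophilins bind the cadherin tails, and desmoplakin (DSP) links this plaque to keratin filaments. In stratified squamous epithelium, including that of the mouth, the junctions carry mechanical load, and several of their proteins are targets of autoantibodies in pemphigus.

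Total gene counts lay between 13681862 and 17860695 per library, and the 10 genes together took 0.163% and 0.141% of the counts with CCL20 overexpression, against 0.203% and 0.201% in the negative control. CCL20 itself had 15.2 and 11.3 FPKM with overexpression, against 8.62 and 7.10 FPKM in the control. It was 1.94-fold higher in edgeR (log2 fold change 0.95, adjusted p = 0.0143), and the value was 0.057 on the log2 scale when corrected for mRNA length (edgeR adjusted p = 0.916). FPKM here is the count divided by gene length and by the library's total count. The line carried squamous markers, led by KRT5 at 441 ± 112 FPKM with overexpression and 453 ± 19.8 FPKM in the control (SD, n = 2 each). All 8 genes of the squamous list, which also holds the more general epithelial genes EPCAM and CDH1, had reads in every library. They summed to 934 to 1201 FPKM with overexpression and 917 to 988 FPKM in the control. Not all were high: KRT14 had 1.11 and 1.09 FPKM with overexpression, against 0.769 and 0.712 FPKM in the control. Directions within the list were mixed, with log2 fold changes of 0.82 for EPCAM, 0.85 for SFN and -0.65 for TP63. Corrected for mRNA length these values were 0.38, 0.17 and -0.25 (edgeR adjusted p = 0.208, 0.620 and 0.460). KRT14, CDH1, EPCAM, SFN and TP63 were named here after their values were seen. Markers of other cells were low, although not all were absent. The 8 fibroblast and mesenchymal markers summed to 6.12 to 8.32 FPKM with overexpression and 12.5 to 13.4 FPKM in the control, led by CDH2. COL1A1 came next, at 1.65 and 2.45 FPKM with overexpression against 3.09 and 3.70 FPKM in the control. COL1A2 and PDGFRB also had reads in every library, whereas COL3A1 and DCN had at most 1 read in any library. COL1A1, COL1A2 and PDGFRB were named here after their values were seen. The 4 endothelial markers summed to 5.10 to 5.27 FPKM with overexpression and 8.23 to 8.81 FPKM in the control, nearly all of it from CDH5, with at most 2 reads of PECAM1 or KDR. Leukocyte markers summed to at most 1.99 FPKM, led by CD14, with at most 1 read of PTPRC, and the 5 cardiac and muscle markers, led by ACTA1, summed to at most 0.277 FPKM. The part of these other transcripts in the results was not tested. In bulk RNA, fewer cells of a type and less RNA per cell cannot be told apart.

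With CCL20 overexpression 4 of the 10 desmosome genes fell, namely DSP, DSG2, DSG3 and DSC3, and 0 rose. A call means an adjusted p under 0.05 in edgeR's quasi-likelihood test over 12168 genes with a mean of at least 1 FPKM, a filter that all 10 genes passed. Of all tested genes 15.7% fell and 16.5% rose. At an unadjusted p under 0.05 the same test also gave 0 desmosome genes higher, as did DESeq2. The median log2 fold change of the 10 genes was -0.54, against 0.0019 over all tested genes. The calls depended on a correction for length, and long transcripts as a whole were lower in the overexpression libraries. The part of length in the calls was not tested. With a correction for gene length 2 of the 10 fell, DSP and DSG2, and 0 rose, where 5.93% of all tested genes fell and 9.95% rose. With a correction for mRNA length 0 fell and 0 rose, where 3.19% of the tested coding genes fell and 3.63% rose. On a TPM scale, which sets the sum of length-scaled levels equal in all libraries, 8 of the 10 fell and 0 rose, where 37.5% of tested genes fell and 3.99% rose. In the fit corrected for mRNA length, edgeR gave 1 desmosome gene lower and 1 higher at an unadjusted p under 0.05, and DESeq2 was not run with it. The share of all tested genes at an unadjusted p under 0.05 is not reported here. Without control replicate 1, 0 of the 10 genes passed in edgeR and 3 were lower at an unadjusted p under 0.05, where 2.73% of all tested genes passed as lower and 2.61% as higher. Without control replicate 2, 0 passed and 4 were lower at an unadjusted p under 0.05, where 4.39% of all tested genes passed as lower and 3.74% as higher. Without overexpression replicate 1, 6 were lower and 1 higher, where 31.5% of all tested genes were lower and 30.8% higher. Without overexpression replicate 2, 5 were lower and 1 higher, where 26.6% were lower and 26.2% higher.

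**Figure D1:**
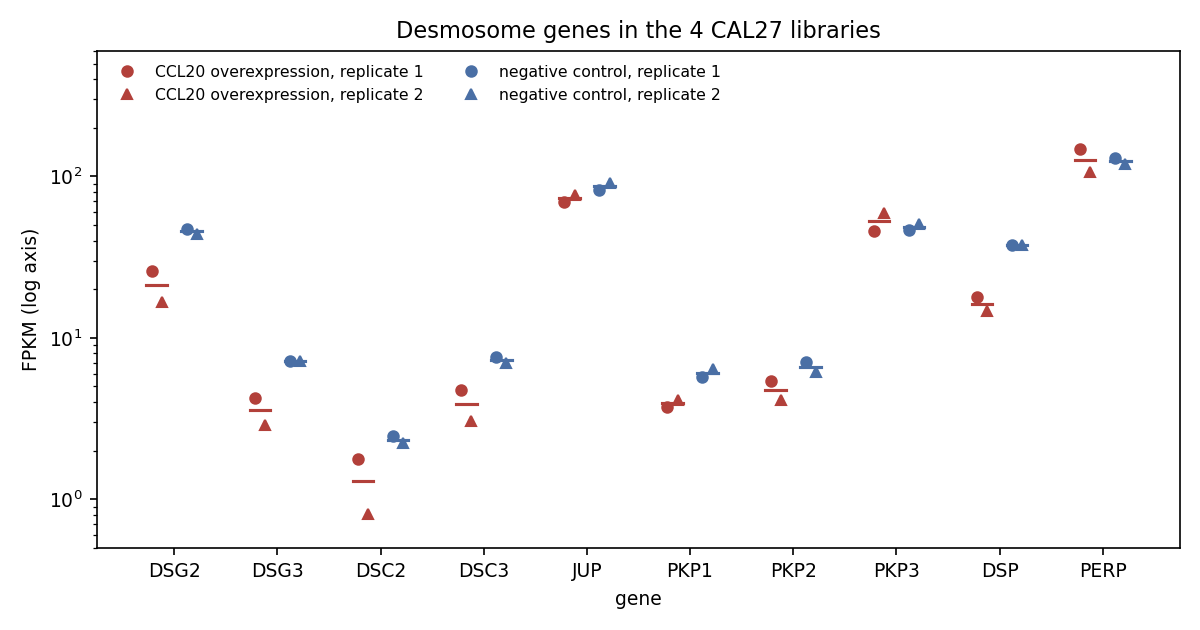
Level in FPKM (log axis) of each desmosome gene in the 4 libraries, with CCL20 overexpression left of the negative control for each gene, circles for replicate 1, triangles for replicate 2 and short lines for group means. The overexpression libraries lay below both controls for 8 genes, and the groups overlapped for PKP3 and PERP.

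Ordered by FPKM, PERP was highest and DSC2 lowest in both groups. With CCL20 overexpression PERP averaged 127 FPKM, followed by JUP at 73.2, PKP3 at 52.5, DSG2 at 21.2 and DSP at 16.3 FPKM. PKP2, PKP1, DSC3 and DSG3 followed at 4.76 to 3.55 FPKM, and DSC2 stood at 1.30 FPKM. In the control PERP averaged 125 FPKM, JUP 86.6, PKP3 48.6, DSG2 45.9 and DSP 37.5 FPKM, then DSC3, DSG3, PKP2 and PKP1 between 7.25 and 6.07 FPKM, and DSC2 at 2.34 FPKM. Neighbours whose replicate ranges overlapped were DSG2 with DSP, PKP1 with DSC3, and DSC3 with DSG3 with overexpression, and PKP3 with DSG2, DSC3 with DSG3, and PKP2 with PKP1 in the control. So DSG2 lay near PKP3 in the control, whereas with overexpression it lay near DSP, well under PKP3. On the FPKM scale the groups did not overlap for 8 of the 10 genes, all lower with overexpression, where 46.9% of all tested genes were lower without overlap. On counts scaled with TMM factors, as in the edgeR test, 7 were lower and 1, PKP3, was higher without overlap, where 35.8% of tested genes were lower and 35.8% higher.

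The 4 desmosomal cadherin genes lie in one cluster on chromosome 18 (GRCh38), DSC3 at 30990008 to 31042815 and DSC2 at 31058840 to 31102522 on the minus strand, DSG3 at 31447795 to 31478702 and DSG2 at 31498043 to 31549008 on the plus strand. Their mRNAs are long, from 5525 nt for DSG3 to 12325 nt for DSC2. The other desmocollin and desmogleins of this family, which mark more differentiated or hair-bearing epidermis, had hardly any signal: DSC1 had 3 and 1 reads with overexpression and 0 in both controls, and DSG1 and DSG4 were not listed in the tables analysed here.

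DSG2, the desmoglein of simple and basal epithelia, had 25.8 and 16.6 FPKM with CCL20 overexpression, against 47.5 and 44.2 FPKM in the control. Both overexpression libraries were below both controls, and the overexpression replicates lay further apart than the controls. DSG2 fell 1.89-fold (log2 fold change -0.92 with an SE of 0.21; edgeR adjusted p = 0.0140). Corrected for gene length, the log2 fold change was -0.70 (edgeR adjusted p = 0.0464). Corrected for mRNA length, it was -0.42 (SE 0.17, edgeR adjusted p = 0.193). DSG2 shares 171 nt of exon with DSG2-AS1 on the opposite strand, which had 8 and 9 reads with overexpression and 8 and 11 in the control. Reads of this stretch cannot be assigned with certainty, because the strand setting of the counting is not known.

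DSG3, the desmoglein of basal and spinous keratinocytes and the main antigen of pemphigus vulgaris, had 4.22 and 2.88 FPKM with overexpression, against 7.21 and 7.23 FPKM in the control. The control libraries were nearly equal and stood above both overexpression libraries. DSG3 fell 1.78-fold (log2 fold change -0.83 with an SE of 0.21; edgeR adjusted p = 0.0197). Its log2 fold change was -0.68 corrected for gene length (edgeR adjusted p = 0.0550) and -0.35 corrected for mRNA length (SE 0.18, edgeR adjusted p = 0.282), so neither fit called it.

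DSC3, the desmocollin of basal keratinocytes, had 4.77 and 3.03 FPKM with overexpression, against 7.56 and 6.94 FPKM in the control. The groups did not overlap. DSC3 fell 1.62-fold (log2 fold change -0.70 with an SE of 0.22; edgeR adjusted p = 0.0413), with corrected values of -0.41 for gene length (edgeR adjusted p = 0.194) and -0.10 for mRNA length (SE 0.18, edgeR adjusted p = 0.780). DSC2, the widely expressed desmocollin, had 1.79 and 0.811 FPKM with overexpression, against 2.46 and 2.23 FPKM in the control, from 343 and 171 reads against 420 and 498. Overexpression replicate 2 was the lowest library by far, and replicate 1 lay between it and the controls. The log2 fold change of DSC2 was -0.66 with the largest SE of the 10 genes, 0.31, and it did not pass the threshold (edgeR adjusted p = 0.1295). It was -0.13 with the gene length correction and 0.14 with the mRNA length correction (edgeR adjusted p = 0.770 and 0.802), so its sign depended on the correction.

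The promoters of the 4 genes that fell without a length correction are shown so that their sequences can be compared. Each is 250 bases before the RefSeq start site (GRCh38.p14), written 5′ to 3′ on the gene's strand: DSP on chr6:7541421-7541670 plus strand, DSG2 on chr18:31497927-31498176 plus strand, DSG3 on chr18:31447491-31447740 plus strand and DSC3 on chr18:31042743-31042992 minus strand. Capitals mark E-boxes with the letters CAGGTG on either strand (CACCTG on the other), the core bound by zinc finger repressors of the SNAI and ZEB families.
DSP: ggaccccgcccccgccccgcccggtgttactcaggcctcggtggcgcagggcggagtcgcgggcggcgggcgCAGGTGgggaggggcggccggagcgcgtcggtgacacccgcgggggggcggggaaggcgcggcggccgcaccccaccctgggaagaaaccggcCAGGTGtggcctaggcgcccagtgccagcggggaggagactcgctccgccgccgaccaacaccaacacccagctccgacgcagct
DSG2: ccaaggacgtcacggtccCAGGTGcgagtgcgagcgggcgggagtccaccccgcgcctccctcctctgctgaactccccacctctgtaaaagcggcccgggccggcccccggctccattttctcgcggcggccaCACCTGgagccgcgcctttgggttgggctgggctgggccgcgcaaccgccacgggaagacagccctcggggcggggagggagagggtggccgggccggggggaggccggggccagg
DSG3: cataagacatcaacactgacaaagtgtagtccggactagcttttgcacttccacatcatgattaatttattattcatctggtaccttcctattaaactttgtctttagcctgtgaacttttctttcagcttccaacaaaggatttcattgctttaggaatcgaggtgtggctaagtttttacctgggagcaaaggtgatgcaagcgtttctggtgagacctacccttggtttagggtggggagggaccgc
DSC3: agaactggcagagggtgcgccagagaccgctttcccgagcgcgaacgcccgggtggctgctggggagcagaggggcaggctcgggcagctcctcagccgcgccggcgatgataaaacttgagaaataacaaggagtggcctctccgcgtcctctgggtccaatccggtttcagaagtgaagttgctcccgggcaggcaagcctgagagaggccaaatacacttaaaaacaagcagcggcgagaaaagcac

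These 4 windows differed in base composition, and none of the motifs searched was found in all 4. GC made up 78.0% of the DSP window, 75.2% of DSG2, 60.4% of DSC3 and 42.8% of DSG3, against a median of 58.0% over all 35116 windows of this length. DSP had E-boxes starting 178 and 85 bases before the RefSeq start site and DSG2 at 232 and 116. The DSG3 and DSC3 windows had none of these letters. In the annotation used for gene positions, DSP starts at 7541575 and DSG2 at 31498043, inside their windows. By that annotation the DSP E-box at 85 bases and the DSG2 E-box at 116 bases lay within the gene. The DSC3 window also overlapped its annotated gene, which ends at 31042815, whereas the DSG3 window did not. Such an E-box was found in 17.5% of all windows, and none of the E-boxes overlapped a GC box. The GC box (GGGCGG on either strand), bound by SP factors, was found 7 times in DSP and 2 times in DSG2, in 0 places in DSG3 and DSC3, and in 42.6% of all windows. An AP-1 site (TGANTCA) was found in none of the 4 and in 6.57% of all windows, a Grainyhead-like site (AACNGGTT on either strand) in none of the 4 and in 1.49%, and a TATA box (TATAAA on either strand) in none of the 4 and in 10.7%. Windows were found for 8 of the 10 genes. Among the others, PERP held 5 GC boxes and the AP-1 letters at 101 bases, and PKP1 held 1 GC box. For JUP 1 of 2 windows held 2 E-boxes and the other 2 GC boxes. Of the 2 DSC2 windows, 1 held 2 GC boxes and the other held 1 GC box and 1 E-box. Of the factors named for the E-box, SNAI2 had 8.68 and 7.16 FPKM with overexpression against 8.30 and 8.45 FPKM in the control, and ZEB1 had 0.0903 and 0.110 FPKM with overexpression against 0.279 and 0.201 FPKM in the control. SNAI2 and ZEB1 were named here after their values were seen.

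JUP (chromosome 17, 41754604 to 41786931, minus strand, mRNA 3298 nt) encodes plakoglobin, an armadillo protein of both desmosomes and adherens junctions. It had 69.9 and 76.6 FPKM with CCL20 overexpression, against 82.1 and 91.1 FPKM in the control. Both overexpression libraries were lower than both controls on this scale. On the TMM scale its log2 fold change was -0.033 (SE 0.17, edgeR adjusted p = 0.891), and the sign was positive with both length corrections (0.018 and 0.094, edgeR adjusted p = 0.948 and 0.762). On a TPM scale it passed as lower (-0.54, edgeR adjusted p = 0.0324).

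PKP1 (chromosome 1, 201283452 to 201332993, plus strand, mRNA 5384 nt), the plakophilin of suprabasal squamous cells, had 3.74 and 4.12 FPKM with overexpression, against 5.73 and 6.41 FPKM in the control. The groups did not overlap. Its log2 fold change was -0.42 (SE 0.19, edgeR adjusted p = 0.118), or 0.056 once corrected for mRNA length (edgeR adjusted p = 0.894). PKP2 (chromosome 12, 32790745 to 32896840, minus strand, mRNA 4302 nt), the plakophilin of simple epithelia and heart, had 5.37 and 4.14 FPKM with overexpression, against 7.11 and 6.12 FPKM in the control. Both overexpression libraries were below both controls, and its log2 fold change was -0.28 (SE 0.19, edgeR adjusted p = 0.277), against 0.041 with the mRNA length correction (edgeR adjusted p = 0.915). PKP3 (chromosome 11, 392614 to 404908, plus strand, mRNA 2809 nt), found in nearly all desmosomes of stratified and simple epithelia, had 46.1 and 59.0 FPKM with overexpression, against 46.6 and 50.7 FPKM in the control. Overexpression replicate 1 was the lowest library and replicate 2 the highest, so the groups overlapped. PKP3 had the shortest mRNA of the 10 genes and the highest log2 fold change, 0.32 (SE 0.19, edgeR adjusted p = 0.223), which was negative on a TPM scale (-0.19, edgeR adjusted p = 0.420).

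DSP (chromosome 6, 7541575 to 7586717, plus strand, mRNA 9796 nt) encodes desmoplakin, the linker from plaque to keratin. It had 17.8 and 14.7 FPKM with overexpression, from 2763 and 2509 reads, against 37.6 and 37.4 FPKM in the control, from 5194 and 6751 reads. The gap between the groups was many times the gap within either. DSP fell 2.01-fold (log2 fold change -1.004 with an SE of 0.16; edgeR adjusted p = 0.00528). It stayed past the threshold with the gene length correction (-0.55, SE 0.15, edgeR adjusted p = 0.0413) but not when corrected for mRNA length (-0.25, SE 0.14, edgeR adjusted p = 0.325). Without a correction for length DSP had the lowest log2 fold change of the 10 genes, whereas DSG2 and DSG3 were lower than DSP with both corrections, and DSC2 (-1.28) and DSG2 (-1.22) were lower than DSP (-1.10) without overexpression replicate 1. Gene-level counts do not separate the DSP isoforms.

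PERP (chromosome 6, 138088505 to 138107511, minus strand, mRNA 4290 nt) encodes a tetraspan membrane protein, a p53 and p63 target that is needed for desmosome assembly in mouse skin. It had 147 and 106 FPKM with overexpression, against 131 and 120 FPKM in the control. One overexpression library was above and the other below both controls. Its log2 fold change was 0.22 (SE 0.18, edgeR adjusted p = 0.367), and it was -0.27 on a TPM scale (edgeR adjusted p = 0.350). With the mRNA length correction it was 0.53 (SE 0.16, edgeR adjusted p = 0.0856; unadjusted p = 0.00940), the highest of the 10 genes in that fit.

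**Figure D2:**
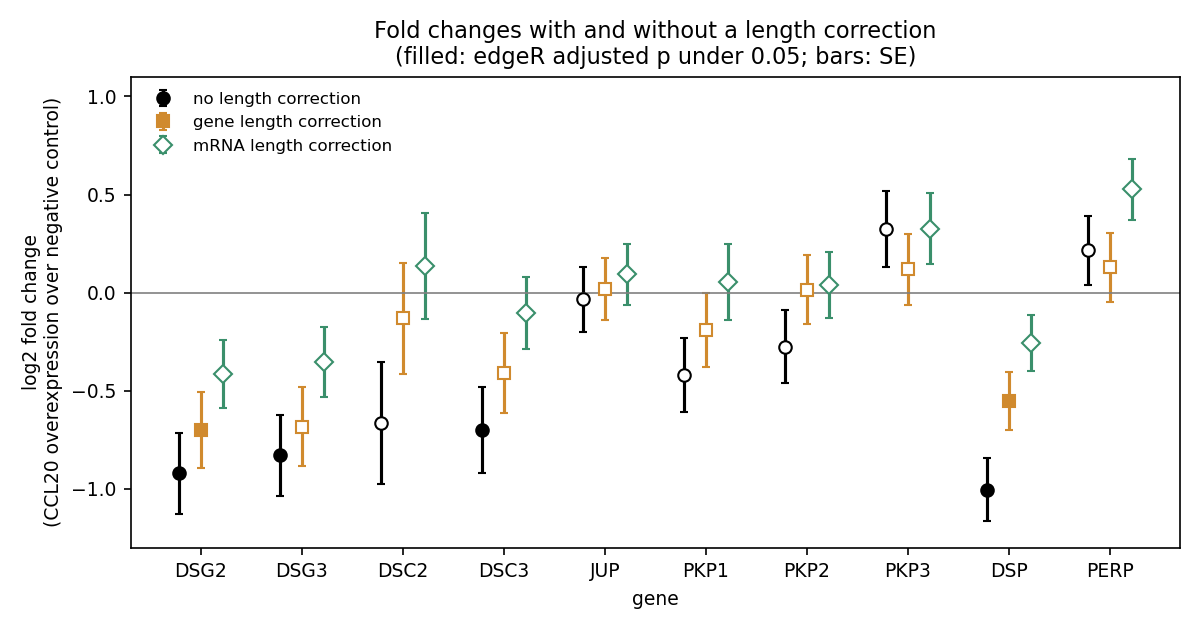
log2 fold change (CCL20 overexpression over negative control) of each desmosome gene without a length correction (circles), with a gene length correction (squares) and with an mRNA length correction (diamonds); bars are SE and filled symbols are past an edgeR adjusted p of 0.05. DSP, DSG2, DSG3 and DSC3 are filled without a correction, DSP and DSG2 with the gene length correction, and none with the mRNA length correction.

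Fold change followed mRNA length both over the transcriptome and among the desmosome genes. Spearman's rho between mRNA length and log2 fold change was -0.73 across 10571 tested coding genes and -0.83 across the 10 desmosome genes. Genes share libraries and are not independent replicates. The median mRNA of the desmosome genes was 5454.5 nt, against 2997.5 nt over the coding genes tested. The smooth trend over coding genes had a log2 difference of -0.75 at the length of DSP, -0.51 at that of DSG2, -0.48 at that of DSG3 and -0.60 at that of DSC3. It was -0.82 for DSC2, -0.46 for PKP1, -0.31 for PKP2 and PERP, -0.12 for JUP and 0.0021 for PKP3. The log2 fold changes of DSP, DSG2, DSG3 and DSC3 were below the trend at their length, and those of the other 6 genes were above it. Counted reads came from genes with a mean length of 5313 and 5013 nt with overexpression, against 6226 and 6130 nt in the control.

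**Figure D3:**
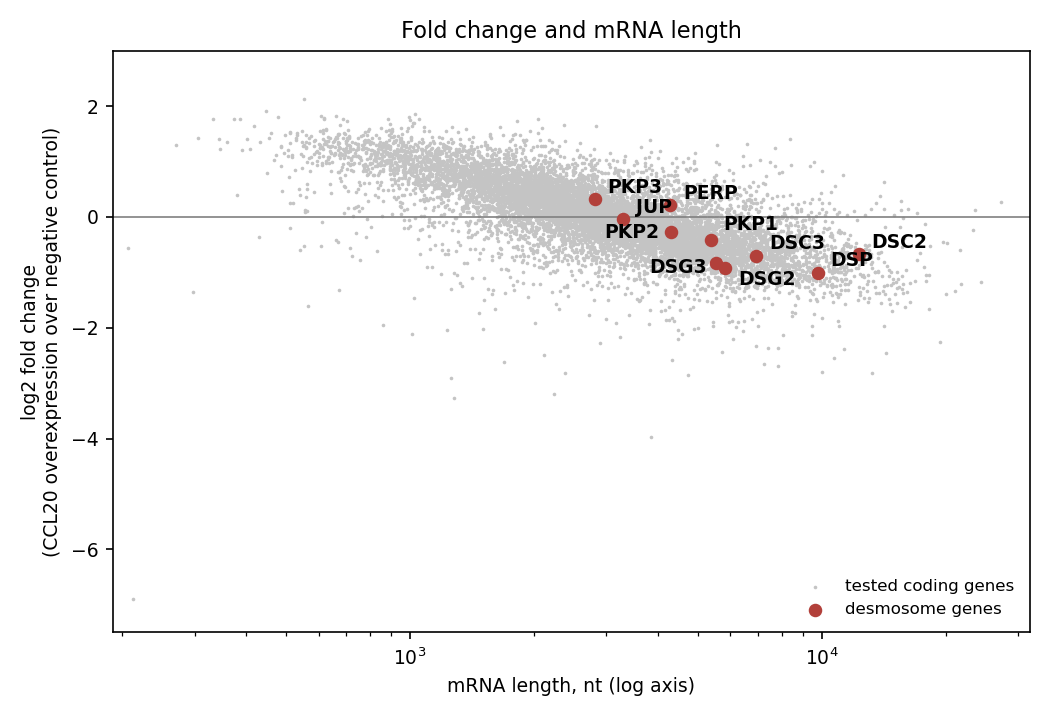
log2 fold change (CCL20 overexpression over negative control) of each tested coding gene against its mRNA length in nt (log axis), with all coding genes in grey and the 10 desmosome genes in red. The grey cloud slopes down with length, and the desmosome genes lie within it, with PKP3, the shortest, at 2809 nt and 0.32, DSP at 9796 nt and -1.004, and DSC2, the longest, at 12325 nt and -0.66.

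The overexpression replicates also differed from each other. On log2 CPM with TMM factors, replicate 2 minus replicate 1 with overexpression was -1.03 for DSC2, -0.55 for DSC3, -0.54 for DSG2 and -0.45 for DSG3. It was -0.37 for PERP, -0.27 for PKP2 and -0.17 for DSP, against 0.24 for JUP, 0.24 for PKP1 and 0.46 for PKP3. In the control pair the same difference ran from -0.21 for PKP2 to 0.17 for PKP1. Over coding genes the difference between replicates had a Spearman correlation with mRNA length of -0.30 with overexpression and -0.15 in the control.

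Within each library the cadherins were set against the plaque genes, a ratio that library scaling cannot move and that carries no length correction. A trend with length can move it, because the mRNAs compared differ in length. The cadherins have 5525 to 12325 nt and the plakophilins 2809 to 5384 nt, and DSP has 9796 nt against 3298 nt for JUP. The part of length in these ratios was not tested. The summed level of the 4 cadherins was 36.6 and 23.3 FPKM with CCL20 overexpression, against 64.8 and 60.6 FPKM in the control. The summed level of the 3 plakophilins was 55.2 and 67.3 FPKM with overexpression, against 59.4 and 63.2 FPKM in the control. The ratio of cadherins to plakophilins was therefore 0.663 and 0.346 with overexpression, against 1.09 and 0.960 in the control, a mean 0.492 times that of the control. DSG2 made up 70.5% to 73.4% of the cadherin sum and PKP3 78.4% to 87.7% of the plakophilin sum. PKP1 and PKP2 were themselves lower in both overexpression libraries than in either control. The ratio of DSP to JUP was 0.255 and 0.192 with overexpression, against 0.458 and 0.411 in the control. Both ratios were lower in both overexpression libraries, at an exact two-sided permutation p of 0.333, the smallest that 2 libraries against 2 allow.

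The make-up of each family was then compared between libraries. DSG3 made up 14.0% and 14.8% of the summed desmoglein FPKM with overexpression, against 13.2% and 14.0% in the control. The groups met at 14.0%, so the difference was about as small as that within each group. DSC2 made up 27.3% and 21.1% of the desmocollins with overexpression, against 24.5% and 24.3% in the control, and the overexpression libraries lay on either side of the controls. PKP3 made up 83.5% and 87.7% of the plakophilins with overexpression, against 78.4% and 80.2% in the control. PKP1 made up 6.78% and 6.13% with overexpression, against 9.64% and 10.1% in the control. PKP2 made up 9.73% and 6.16% with overexpression, against 12.0% and 9.69% in the control. The groups did not overlap for PKP3, which had the larger share with overexpression, or for PKP1, which had the smaller, and they overlapped for PKP2. PKP3 has the shortest mRNA of the 3 plakophilins and PKP1 the longest, and the part of length in these shares was not tested.

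**Figure D4:**
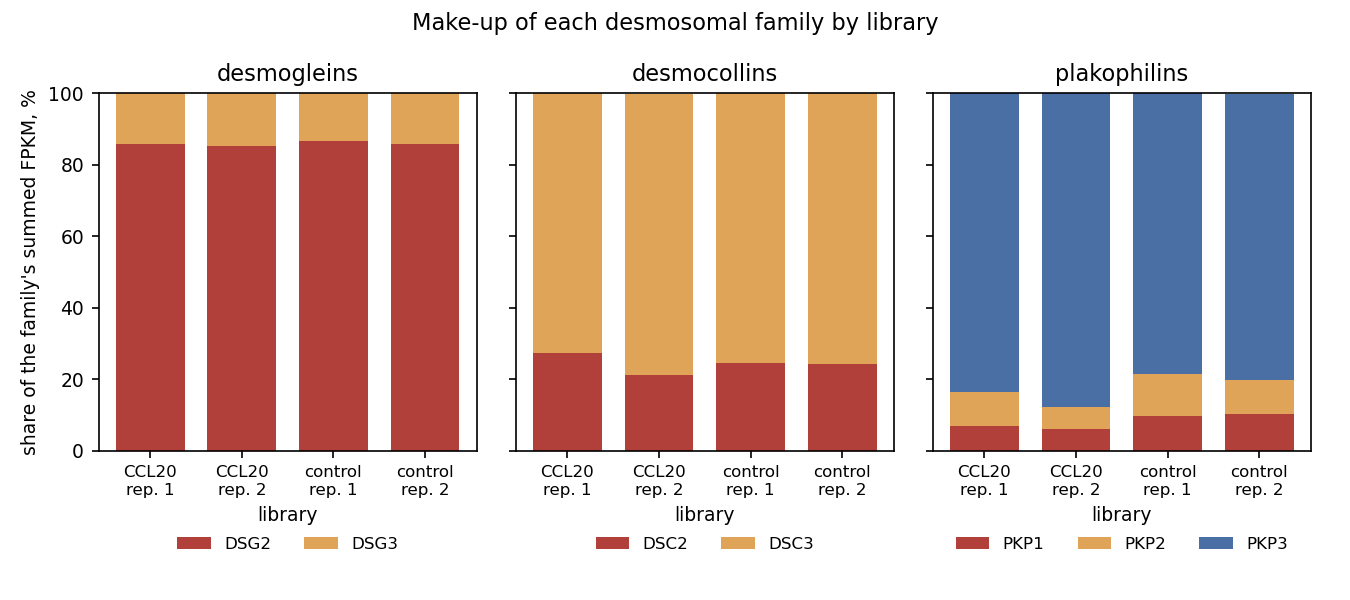
Share (%) of each gene in the summed FPKM of its family in each library, with the 2 CCL20-overexpression libraries left of the 2 negative control libraries. DSG2 holds over 85% of the desmogleins in every library, DSC3 between 72.7% and 78.9% of the desmocollins, and PKP3 has a larger share in both overexpression libraries than in either control.

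Other desmosome and cornified junction genes did not pass the test in either direction: 0 of 4 tested were higher and 0 lower, of 8 in the list. Over all tested genes 16.5% were higher and 15.7% lower. The 4 genes had a median log2 fold change of -0.34, against 0.0019 over all tested genes. The sign of this median depended on the length correction, at 0.039 corrected for gene length and 0.14 corrected for mRNA length. PPL and EVPL, the plakins periplakin and envoplakin, had log2 fold changes of -0.51 and -0.39 (edgeR adjusted p = 0.0926 and 0.352). PKP4, a relative of the plakophilins, had -0.30 and KAZN, a periplakin-binding protein, had -0.14 (edgeR adjusted p = 0.184 and 0.639). On a TPM scale all 4 passed as lower, with edgeR adjusted p-values of 0.00778 to 0.0395, where 37.5% of all tested genes did. CDSN, the corneodesmosin of cornified layers, had 0 reads with overexpression and 2 and 1 in the control.

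Keratins, the filaments that desmosomes anchor, went the other way: 4 of 9 tested genes rose and 0 fell, of 13 in the list. Of all tested genes, 16.5% rose and 15.7% fell. The median log2 fold change of the 9 keratins was 0.71. Their mRNAs were short, 1882 nt at the median. KRT18 had 222 and 266 FPKM with overexpression, against 115 and 119 FPKM in the control, and rose 2.42-fold (log2 fold change 1.28 with an SE of 0.18; edgeR adjusted p = 0.00442). Its partner KRT8 rose 1.70-fold and KRT7 2.60-fold (edgeR adjusted p = 0.0163 for each), and KRT17, named after its value was seen, also rose (log2 fold change 0.94, edgeR adjusted p = 0.0190). On a TPM scale KRT18 passed as higher (0.76, edgeR adjusted p = 0.00994), where 3.99% of all tested genes did. KRT8 and KRT7 did not pass on that scale (0.26 and 0.86, edgeR adjusted p = 0.201 and 0.0504). KRT5, the highest keratin, had a log2 fold change of 0.18 (edgeR adjusted p = 0.544), which was -0.34 on a TPM scale (edgeR adjusted p = 0.144). With the gene length correction 4 of the 9 rose, namely KRT18, KRT7, KRT8 and KRT15, and 0 fell, where 9.95% of all tested genes rose. KRT15 was named here after its value was seen. With the mRNA length correction 1 of the 9, KRT18, was past the threshold (log2 fold change 0.69, edgeR adjusted p = 0.0305). In that fit 3.63% of the tested coding genes rose. KRT8 and KRT18 have many processed copies in the genome, so their counts are uncertain.

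Among 12 adherens junction genes 4 fell and 0 rose, where 15.7% of all tested genes fell and 16.5% rose. The median log2 fold change of the 12 was -0.38. AFDN, the nectin-binding scaffold afadin, fell 2.04-fold, VCL, the actin linker vinculin, fell 1.85-fold, and CTNND1, the cadherin-binding p120 catenin, fell 1.75-fold (edgeR adjusted p = 0.00838, 0.00649 and 0.00878). PLEKHA7, a partner of p120 catenin, was the other that fell (log2 fold change -0.83, edgeR adjusted p = 0.0180) and was named after its value was seen. CTNNA1, the highest of the list, had a log2 fold change of -0.035 (edgeR adjusted p = 0.874). With either length correction 0 of the 12 passed in edgeR. In those fits 5.93% of all tested genes (gene length) and 3.19% of the tested coding genes (mRNA length) fell.

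Among regulators of desmosome genes and proteins 5 of 12 tested fell and 0 rose, of 15 in the list. Over all tested genes 15.7% fell and 16.5% rose. The 12 regulators had a median log2 fold change of -0.49. ADAM17, a sheddase that cleaves DSG2, fell 2.57-fold, GRHL2, a transcription factor of epithelial junction genes, fell 1.81-fold, and RIPK4, a kinase that phosphorylates PKP1, fell 1.60-fold (edgeR adjusted p = 0.0168, 0.0178 and 0.0273). The other 2, named after their values were seen, were the sheddase ADAM10 (log2 fold change -0.68, edgeR adjusted p = 0.0344) and TP63, the p63 gene that drives PERP (-0.65, edgeR adjusted p = 0.0486). With the gene length correction RIPK4 alone of this list passed (log2 fold change -0.83, edgeR adjusted p = 0.0249), where 5.93% of all tested genes fell. Corrected for mRNA length, GSK3B alone did (-0.93, edgeR adjusted p = 0.0161), where 3.19% of the tested coding genes fell. GSK3B, a kinase that acts on DSP, was named here after its value was seen. Its log2 fold change was -0.43 without a correction and -0.074 with the gene length correction (edgeR adjusted p = 0.0673 and 0.758). Its mRNA length was taken as 1636 nt, whereas its gene length was 8156 nt.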

How the data were processed

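Per the file headers, each library's table lists 29437 genes with their count and FPKM. The deposited counts are unnormalized whole numbers of reads. The deposited FPKM equals the count divided by gene length and by the library's total count. The submitters' processing notes name HISAT2, HTSeq 0.13.5 and GRCh38; for annotation, trimming and strand these sources give nothing. The gene lengths implied by count and FPKM equalled the union exon length of GENCODE 29 for 99.7% of genes, and GENCODE 29 gave positions and mRNA lengths (the median of the principal transcripts). The total count was 13681862 to 17860695 per library. The labels gave the groups and the replicate numbers. Replicates differed by more than sampling noise (chi-square per gene 27.1 with overexpression and 4.79 in the control), so none was treated as a duplicate.

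Genes were tested with edgeR 4.0.16 (R 4.3.3; TMM factors, glmQLFit and glmQLFTest, two-sided, Benjamini-Hochberg adjustment over all 12168 tested genes), taking genes with a mean of at least 1 FPKM over the 4 libraries. An SE was taken from the log2 fold change and its F statistic. The length corrections fit, in each library, a natural spline with 5 degrees of freedom of log2 CPM minus its gene mean on log2 length, and use the fit as an offset; the mRNA version covers 10571 coding genes. The scripts were tested on simulated data. Without a length trend, 4.81% of calls were false with or without the gene length correction. With a set trend of gene length, 92.6% of calls were false uncorrected and 5.41% with that correction. The mRNA length correction was not simulated, and the set trend was not fitted to these data. DESeq2 1.42.0 and limma 3.58.1 served as alternatives (Python 3.11.15, pandas 2.3.3, numpy 2.4.6 for tables). Genes named are the 10 members, CCL20, the list of other desmosome genes, up to 3 genes past the threshold by p and the highest of each further list, the top gene of each marker list, and genes sharing exons with a member. One gene that this rule names is not reported here. The members, lists and alternatives were chosen with earlier results of these data known, and the promoter motifs after the promoters were read. Promoters are from RefSeq (GRCh38.p14).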

Additional observations from a re-analysis of the deposited data

How the results depend on the processing

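The number of desmosome genes that fell, 4 in the main test, was 8 on a TPM scale, 2 with the gene length correction, 0 with the mRNA length correction and 1 at an adjusted p under 0.01; it lay between 0 and 6 with 1 library left out. The number that rose lay between 0 and 1 with 1 library left out and was 0 otherwise. In those fits the remaining single library is assumed to vary like the other group's pair. The median log2 fold change of the desmosome genes was -0.75 on total counts, -1.03 on a TPM scale, -0.75 with limma at a pseudocount of 0.1, -0.16 with the gene length correction, 0.048 with the mRNA length correction and -0.19 with the replicate block and the gene length correction, and between -0.71 and -0.34 with 1 library left out. Over all tested genes that median was -0.21 on total counts and -0.50 on a TPM scale. Over all genes, 2010 were higher and 1905 lower in the main test. These were 1251 and 2985 on total counts, 486 and 4563 on a TPM scale, 1211 and 721 with the gene length correction, 384 and 337 with the mRNA length correction, and 705 and 615 at an adjusted p under 0.01. With limma 1245 were higher and 2608 lower at a pseudocount of 1, and 1176 and 2438 at 0.1. With 1 library left out 318 to 3742 were higher and 332 to 3837 lower.

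With the mRNA length correction the log2 fold changes of DSC2, PKP1, PKP2 and JUP changed sign, to 0.14, 0.056, 0.041 and 0.094. With the gene length correction PKP2 was at 0.016 and JUP at 0.018, and with the replicate block added they were at 0.014 and 0.015. On a TPM scale PKP3 was at -0.19 and PERP at -0.27, and PERP was at -8.8e-05 and -0.00022 with limma at pseudocounts of 1 and 0.1. JUP was at 0.016 without a filter, and between -0.15 and 0.074 with 1 library left out. The cause of these changes was not tested. Of the values of single desmosome genes under the alternatives, 122 kept their direction and their side of the threshold, 14 crossed to past it, 18 crossed to short of it and 15 changed sign. DSC2 gave no value at a minimum of 5 FPKM.

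Libraries with the same number shared only that number. The correlation of their deviations from the group means was 0.27. With the replicate block 5 desmosome genes were lower and 0 higher, and over all genes 2840 were higher and 2918 lower; with the block and the gene length correction 3 desmosome genes were lower and 0 higher, where 1746 of all genes were lower and 2224 higher.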
